A study of Rattus norvegicus with 18 samples.

Results

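The genes described here are 10 markers of eosinophils and mast cells, measured by RNA sequencing in cells of the rat knee synovium that were enriched on CD11b/c magnetic beads. They were picked by name from the 30643 genes of each deposited table. Rnase2, Epx, Prg2 and Il5ra stand for eosinophils, and Cpa3, Tpsab1, Tpsb2, Cma1, Kit and Ms4a2 stand for mast cells. Rnase2 was included because of its values in OA and sham macrophages at 4-weeks, so the 4-week differences of these 10 genes between OA and sham are given as a description with no test. Their 12-week differences were tested.

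Wild type male Sprague Dawley rats were 12 weeks old at surgery. In the OA groups the knee was opened and both the anterior cruciate ligament and the medial meniscotibial ligament were cut to induce post traumatic osteoarthritis, whereas in the sham groups the knee was opened with no ligament cut. Every animal, controls included, therefore had an opened joint. Synovium was taken at 4 or 12 weeks, so the groups at the later time point were also older. Each library was a pool of 4 rats at 4-weeks (5 OA and 5 sham libraries) or 3 rats at 12-weeks (4 OA and 4 sham libraries). The bead sort selects myeloid cells in general and not macrophages alone. All 12 macrophage markers examined, Cd68, Csf1r and C1qa among them, were detected, and their summed level was 142441 to 171999 normalized reads at 4-weeks and 158773 to 230933 at 12-weeks.

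Eosinophils and mast cells are granulocytes of type 2 immunity. Eosinophils store cationic granule proteins, among them major basic protein, eosinophil peroxidase and ribonucleases, and depend on interleukin 5 for their growth and survival. Mast cells live in connective tissue, including the synovium, where stem cell factor acting on the receptor Kit keeps them alive. They carry IgE on a high-affinity receptor, and their granules hold histamine and the proteases tryptase, chymase and carboxypeptidase. Both lineages use GATA transcription factors, which bind DNA at the letters GATA.

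The 100 bases before the start site of 6 of these genes are shown. RefSeq (GRCr8) gave a promoter for 8 of the 10 genes. Prg2 and Ms4a2 had no entry. Capitals mark the letters GATAA, or TTATC where the motif lies on the opposite strand, and each sequence reads 5′ to 3′ on the gene's own strand. GATA without the further A, as in the window of Epx and on the opposite strand in that of Rnase2, was neither marked nor counted. The windows are chr2:104673238-104673337 for Cpa3, chr15:33390134-33390233 for Cma1 and chr10:14867303-14867402 for Tpsab1, all on the minus strand, and chr10:14886210-14886309 on the plus strand for Tpsb2. Those of Epx and Rnase2 are chr10:73175181-73175280 and chr15:26923935-26924034, both on the minus strand.
Cpa3: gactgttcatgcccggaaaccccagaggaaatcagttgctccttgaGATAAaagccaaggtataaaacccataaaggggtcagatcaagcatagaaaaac
Cma1: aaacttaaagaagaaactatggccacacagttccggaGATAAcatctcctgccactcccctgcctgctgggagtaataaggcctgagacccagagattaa
Tpsab1: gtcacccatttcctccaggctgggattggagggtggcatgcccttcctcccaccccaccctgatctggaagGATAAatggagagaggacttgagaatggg
Tpsb2: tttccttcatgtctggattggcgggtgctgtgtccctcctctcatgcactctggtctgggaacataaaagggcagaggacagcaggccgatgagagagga
Epx: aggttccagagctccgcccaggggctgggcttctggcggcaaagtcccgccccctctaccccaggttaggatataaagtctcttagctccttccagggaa
Rnase2: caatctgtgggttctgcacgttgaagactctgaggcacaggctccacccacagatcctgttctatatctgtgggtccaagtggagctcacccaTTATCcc
GATAA was found on either strand in 4 of the 8 windows, in Cpa3, Cma1, Tpsab1 and Rnase2. The windows of Il5ra and Kit, which are not shown, did not hold it. Among all 33469 promoter windows of the same length in the RefSeq table, 9.15% held it. TATAAA, also searched on both strands, was found in the windows of Epx and Cpa3, 2 of 8, and in 5.78% of all windows. In Cpa3 the GATAA match spanned positions -54 to -50 and the TATAAA match -40 to -35, so they did not overlap. These matches describe letters in a window and show no binding. Whether the motif goes with the variation of these genes across libraries was not tested.

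Values below are normalized reads, that is, reads per gene divided by a scaling factor that the authors estimated within each time point. They compare libraries of one time point with each other. They do not compare genes, because gene length was not taken into account. Libraries held 4662344 to 18080503 reads, and 3 reads correspond to 2.06 to 6.96 normalized reads at 4-weeks and to 2.27 to 3.82 at 12-weeks. The shallowest library, sham replicate 3 at 4-weeks, held the highest value of its group for Rnase2, Il5ra, Cpa3, Tpsab1, Tpsb2 and Cma1. Log2 fold changes are OA minus sham on the log2(normalized reads + 1) scale, with the standard error (SE) of the limma fit, a linear model over all genes with a pooled variance. Fewer cells of a type and less RNA per cell cannot be told apart in such bulk samples.

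**Figure D1:**
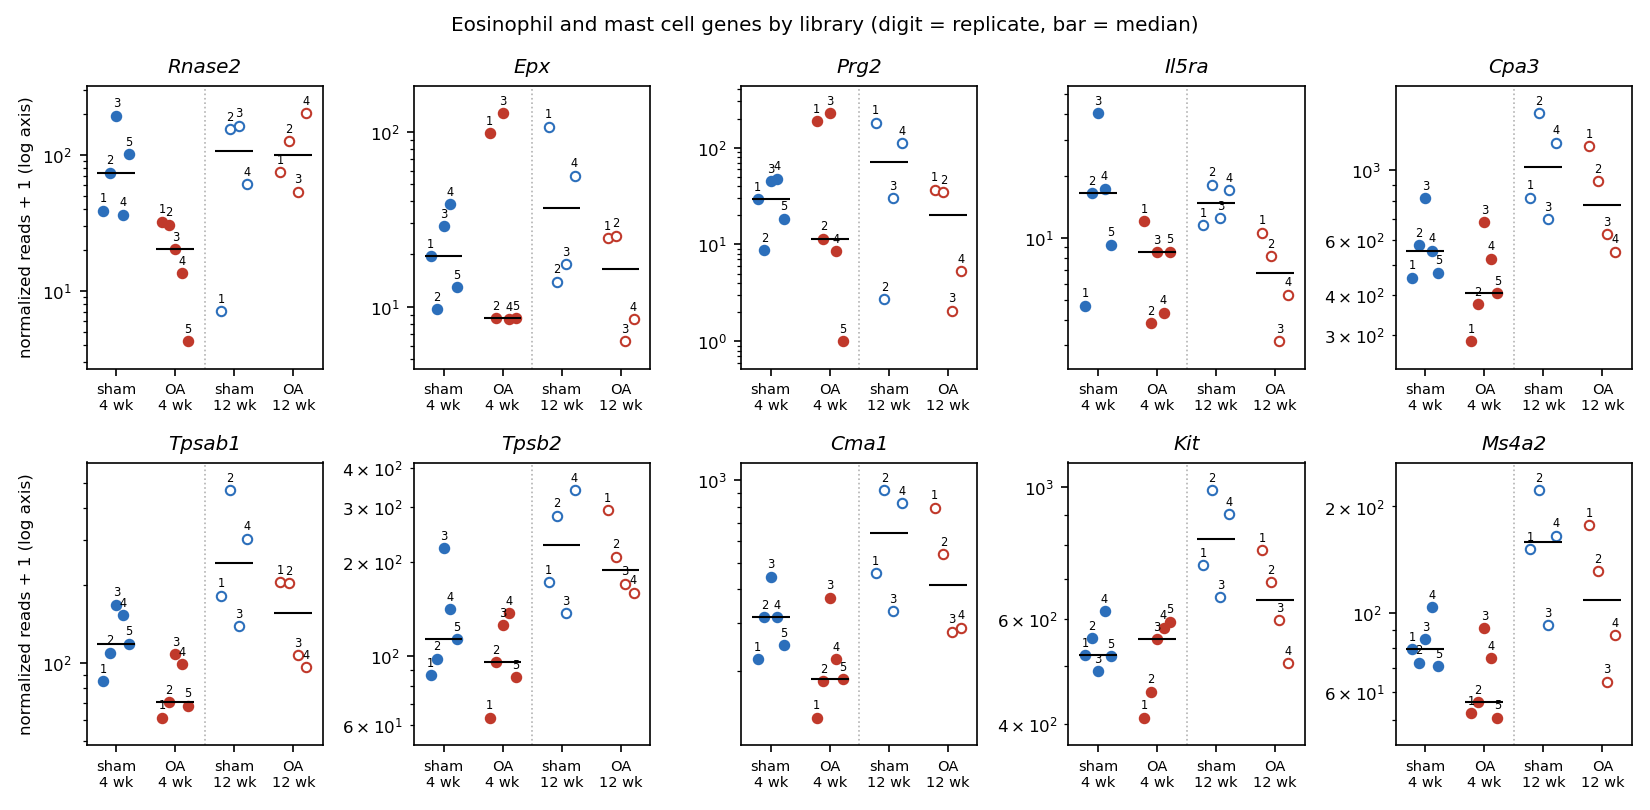
Normalized reads plus 1 (log axis, a different range in each panel) of the 10 genes by library, with sham in blue and OA in red, filled points for 4 weeks and open points for 12 weeks, digits for replicate numbers and bars for group medians. Rnase2 at 4-weeks and Il5ra at 12-weeks are the panels in which no OA point reaches the sham points of the same time point.

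Among the eosinophil genes, Rnase2 encodes a secreted ribonuclease of the eosinophil granule. Which cells of the sort made Rnase2 was not tested. At 4-weeks its normalized reads in OA replicates 1 to 5 were 31.2, 29.5, 19.2, 12.5 and 3.25. In sham replicates 1 to 5 they were 37.8, 72.7, 193, 35.2 and 99.4. Every OA library was below every sham library, with OA replicate 1 (31.2) just under sham replicate 4 (35.2). The group means were 19.1 ± 11.7 in OA and 87.5 ± 64.5 in sham (SD, n = 5 each), and the log2 fold change was -2.16 (SE 0.58). These are the values for which the gene was chosen, and they carry no test here. The OA values rested on 3 to 45 reads per library and the sham values on 30 to 108 reads. Groups did not overlap in 1.87% of the 14861 genes measured at 4-weeks, and OA was the lower group in 0.693%. Of the 10 genes, Rnase2 was the only one without overlap at 4-weeks.

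The 12-week libraries showed no such separation. Normalized reads of Rnase2 were 73.3, 125, 52.6 and 201 in OA replicates 1 to 4. In sham replicates 1 to 4 they were 6.05, 153, 163 and 59.8. Sham replicate 1 stood far below its group with 8 reads, whereas the remaining sham libraries lay within the OA range. The log2 fold change was 0.81 (SE 0.88, 95% interval -1.15 to 2.76), and limma gave an adjusted p of 0.716. Without sham replicate 1 it was -0.20, so that library set the direction. The interval allows differences of several fold either way, and the change in the OA effect between 4 and 12 weeks was not tested. Within the 12-week sham group alone, the highest library had 26.9 times the Rnase2 of the lowest.

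Epx encodes eosinophil peroxidase and Prg2 encodes major basic protein, the main proteins of the eosinophil granule. At 4-weeks, Epx was 97.1, 7.62, 126, 7.48 and 7.59 normalized reads in OA replicates 1 to 5. In the sham replicates it was 18.4, 8.72, 27.9, 37.5 and 11.97. OA replicates 1 and 3 were above all sham libraries, and the other OA libraries were below all of them. The log2 fold change of 0.31 (SE 0.81) averaged over these opposite positions.

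Prg2 was likewise high in OA replicates 1 and 3 at 4-weeks, with normalized reads of 188, 10.5, 225, 7.48 and 0 in the OA replicates. Sham replicates had 28.5, 7.76, 44.1, 46.9 and 17.5. The 0 in OA replicate 5 allows a level of up to 3.25 normalized reads, the worth of 3 reads in that library. On the log2 scale the difference was -0.26 (SE 1.26), whereas DESeq2 on the recovered reads gave 1.55 and edgeR 1.68. Leaving out OA replicate 5 gave 0.84. No direction can therefore be assigned to Prg2 at 4-weeks, nor to Epx, whose value was -0.20 without OA replicate 1 and -0.30 without OA replicate 3.

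At 12-weeks Epx was 23.6, 24.5, 5.36 and 7.51 normalized reads in the OA replicates. It was 106, 12.9, 16.5 and 55.2 in the sham replicates. All 4 OA libraries were below the sham median, but the groups overlapped. The log2 fold change was -1.36 (SE 0.69, 95% interval -2.88 to 0.17), with an adjusted p of 0.438 by limma. Prg2 was 35.8, 33.7, 1.07 and 4.29 in OA. It was 179.8, 1.72, 29.3 and 110.3 in sham. Sham replicates 1 and 4 were the highest libraries for both genes, and the low values of Prg2 rested on as few as 1 or 2 reads. The difference of Prg2 was -1.72 on the log2 scale (SE 1.32), and limma gave an adjusted p of 0.592 and an interval of -4.65 to 1.20.

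Il5ra encodes the ligand-binding chain of the interleukin 5 receptor and had few reads, 2 to 20 per library. At 4-weeks its normalized reads were 11.1, 2.86, 7.55, 3.32 and 7.59 in OA. In sham they were 3.68, 15.5, 39.5, 16.4 and 8.29. All OA libraries were below the sham median, but the ranges overlapped, with a log2 fold change of -1.02 (SE 0.56). At 12-weeks the values were 9.60, 7.15, 2.14 and 4.29 in OA. In sham they were 10.6, 17.2, 11.4 and 16.1. Here the groups did not overlap, with OA lower. That was so in 3.44% of the 14666 genes with a mean of at least 10 at 12-weeks (6.29% in either direction), a set without Il5ra. The mean of 9.81 normalized reads missed the minimum of 10, so Il5ra was left out of the main fit. In the fit over every gene with a read its log2 fold change was -1.24 (SE 0.42), and limma gave an adjusted p of 0.402, so it did not pass the threshold. The adjusted p was 0.296 to 0.709 where leaving out a library brought the mean over the minimum. The difference between the nearest libraries, OA replicate 1 with 11 reads and sham replicate 1 with 14 reads, was small.

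The mast cell genes were steadier from library to library. Cpa3 encodes mast cell carboxypeptidase A3. At 4-weeks it had 285, 373, 683, 522 and 405 normalized reads in OA replicates 1 to 5. Sham replicates 1 to 5 had 454, 577, 815, 553 and 471. OA replicate 3 was above all sham libraries except replicate 3, and the ranges overlapped, with a log2 fold change of -0.37 (SE 0.22). At 12-weeks the values were 1190.3, 920.2, 624 and 549 in OA. In sham they were 816, 1515, 697 and 1222. The highest libraries were sham replicates 2 and 4 and OA replicate 1, and the log2 fold change was again -0.37 (SE 0.28, 95% interval -1.0 to 0.26), with an adjusted p of 0.591 by limma.

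Cma1 encodes chymase, the granule protease of connective tissue mast cells. Its normalized reads at 4-weeks were 135, 183, 371, 221 and 187 in OA. They were 221, 315, 443, 314 and 249 in sham. As for Cpa3, OA replicate 3 was the highest OA library at 4-weeks and sham replicate 3 the highest of all. At 12-weeks they were 793, 536, 279 and 288 in OA. They were 457, 922, 331 and 825 in sham. OA replicate 1 and sham replicates 2 and 4 were again the highest of the 12-week libraries, and the ranges overlapped at both time points. The log2 fold change was -0.53 (SE 0.25) at 4-weeks and -0.44 (SE 0.39) at 12-weeks, the latter with an adjusted p of 0.654 by limma.

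Tpsab1 and Tpsb2 encode the mast cell tryptases, and reads of such close paralogs could be split between them by the counting. At 4-weeks Tpsab1 was 60.3, 69.6, 107, 98.03 and 67.2 normalized reads in OA. It was 83.8, 109, 167, 152 and 118 in sham. All 5 OA libraries were below the sham median, although the ranges overlapped (log2 fold change -0.63, SE 0.21). At 12-weeks Tpsab1 was 204, 203, 106 and 95.4 in OA. It was 181, 468, 137 and 302 in sham. Again all 4 OA libraries were below the sham median and the ranges overlapped. The log2 fold change was -0.76 (SE 0.38, 95% interval -1.61 to 0.09), the lowest of the mast cell genes, with an adjusted p of 0.436 by limma. Tpsb2 ranged from 62.4 to 136 in OA and from 85.6 to 220.5 in sham at 4-weeks, and from 159 to 293 in OA and from 136 to 340.2 in sham at 12-weeks. The log2 fold change of Tpsb2 was -0.35 (SE 0.26) at 4-weeks and -0.11 (SE 0.29) at 12-weeks, with an adjusted p of 0.886 by limma at 12-weeks and a change of sign when any of 3 libraries was left out.

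Kit encodes the receptor for stem cell factor and Ms4a2 the beta chain of the high-affinity IgE receptor. Kit varied least, with normalized reads at 4-weeks of 409, 453, 554, 579.9 and 593 in OA. Sham libraries at 4-weeks had 521, 556, 489.7, 618 and 519. At 4-weeks OA and sham libraries were intermixed, with a log2 fold change of -0.07 (SE 0.11). At 12-weeks Kit was 784, 692, 597 and 505 in OA. It was 738, 989, 652 and 899.8 in sham. All 4 OA libraries were below the sham median, and the log2 fold change was -0.35 (SE 0.16, 95% interval -0.69 to 0.00), with an adjusted p of 0.404 by limma. Kit is also made by cells other than mast cells. Ms4a2 ranged from 49.9 to 89.96 in OA and 70.0 to 103 in sham at 4-weeks (log2 fold change -0.36, SE 0.18), and from 63.3 to 176 in OA and 91.6 to 222 in sham at 12-weeks. The 12-week difference on the log2 scale was -0.50 (SE 0.33), and limma gave an adjusted p of 0.541.

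**Figure D2:**
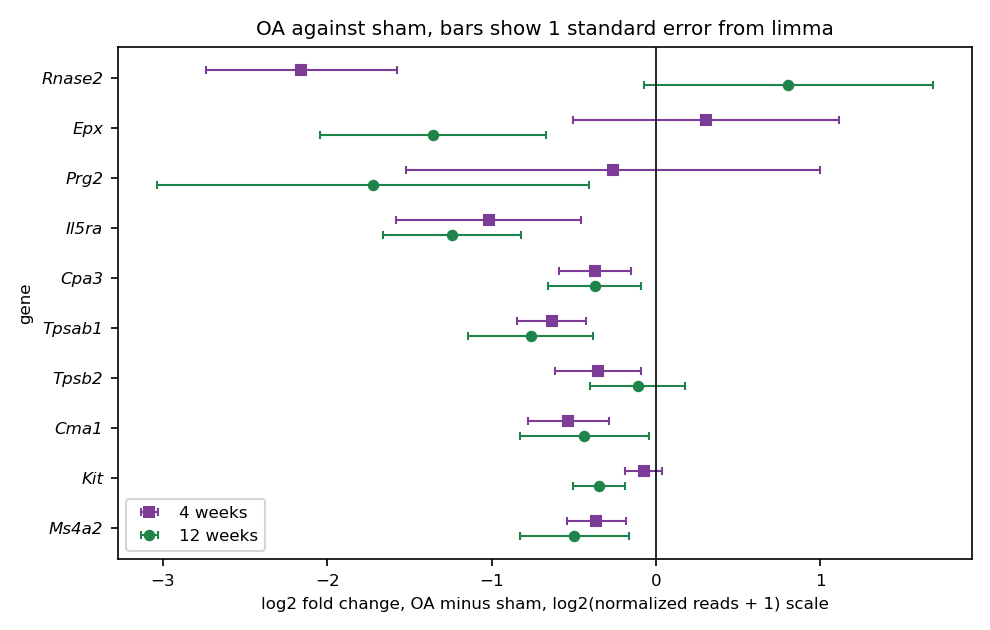
Log2 fold change of OA minus sham (horizontal axis) for the 10 genes (vertical axis) at 4 weeks (purple squares) and 12 weeks (green circles), with bars of 1 SE from limma (for Il5ra at 12 weeks from the fit over every gene with a read). Rnase2 is the gene furthest to the left at 4 weeks (-2.16) and the only one to the right of 0 at 12 weeks (0.81), and at each time point the bars of the eosinophil genes are wider than those of the mast cell genes.

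None of the 10 genes was called at 12-weeks (adjusted p under 0.05 and a log2 fold change of at least 0.5). By limma, 0.0% of all genes tested were called at either time point. The unadjusted p was under 0.05 for 1177 genes (7.92%) at 4-weeks and 1814 (12.4%) at 12-weeks, and DESeq2 called 29 and 99 genes, 0.195% and 0.675% of those tested. DESeq2, which tested 9 of the 10 genes at 12-weeks, called none of them. Their lowest adjusted p in DESeq2 was 0.259, for Epx, whose adjusted p over all alternatives ran from 0.259 to 0.792. In the limma fit over genes with a mean of at least 10, 6.62% of genes had an unadjusted p under 0.05 with OA lower at 12-weeks, and 0 of the 9 genes tested were among them. In the fit over every gene with a read that share was 4.25%, and 4 of the 10 genes were among them, namely Il5ra, Kit, Tpsab1 and Epx, with adjusted p values by limma of 0.402, 0.471, 0.490 and 0.514. These calls thus depended on which genes entered the fit, and none passed the adjusted threshold in either. The 12-week fold change was below 0 for 9 of the 10 genes, Tpsb2 with its unstable sign among them, against 52.5% of all genes tested. At 4-weeks it was also below 0 for 9 of the 10 genes, against 42.9% of all genes tested. That 4-week count takes in Rnase2, which was chosen for being low, and Prg2, to which no direction can be assigned. Nothing is read from that count. At 12-weeks the median over the 10 genes was -0.47, against -0.01 over all genes tested. The mast cell genes varied together, so their 6 fold changes are not separate observations of the same direction.

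Recovered reads scaled to the library total (CPM) place the 4 groups side by side, although the time points differ in age, pool size and table and no test was made between them. Mean CPM of Rnase2 was 1.64 ± 1.02 in OA at 4-weeks, 6.89 ± 5.47 in sham at 12-weeks, 7.76 ± 6.06 in sham at 4-weeks and 8.15 ± 4.78 in OA at 12-weeks (SD, n = 5 at 4-weeks and n = 4 at 12-weeks). OA at 4-weeks had the lowest mean, but Rnase2 was chosen for its 4-week values, so nothing is read from that position. The other 3 means lay within one SD of each other. Cpa3 was lowest in OA at 4-weeks at 38.5 ± 12.8 CPM and highest in sham at 12-weeks at 76.9 ± 27.6 CPM. That order of the extremes held for Tpsb2, Cma1, Tpsab1, Kit and Ms4a2 as well. In all 30 pairs of groups that were neighbours in the order of means, over the 10 genes, the ranges of the libraries overlapped. The summed CPM of the 6 mast cell genes was 88.1 to 163 in OA and 121 to 205 in sham at 4-weeks, and 122 to 251 in OA and 146 to 322 in sham at 12-weeks.

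To see which genes varied together apart from the OA and sham difference, the group mean was subtracted from each gene's log2 level and Pearson's r was taken over the 18 libraries, as a description with no test. Libraries share depth and composition, and no batch is given in the labels. The 6 mast cell genes correlated with each other in all 15 pairs, with r between 0.62 and 0.98. The range was 0.31 to 0.98 within the 4-week libraries and 0.80 to 0.99 within the 12-week libraries. The low end at 4-weeks came from Kit, whose r there ran from 0.31 (Tpsb2) to 0.48 (Ms4a2). Pairs without Kit ran from 0.64 to 0.98 at 4-weeks. Cpa3 and Cma1 were the closest pair (r = 0.98), and Kit with Tpsb2 the loosest (r = 0.62). Without the shallow sham replicate 3 at 4-weeks the 15 values ran from 0.74 to 0.98.

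The genes most like the mean of the 6 mast cell genes, out of 14311 candidates, were Mcpt1l1 (r = 0.95), AC126641.1 (0.94), Mrgprb3 (0.86), Fcer1a (0.86) and Mrgprx2 (0.85). Mcpt1l1 is named for the mast cell protease family, Fcer1a encodes the IgE-binding chain of the receptor that contains Ms4a2, and Mrgprb3 and Mrgprx2 belong to the Mas-related receptors. Of these, Fcer1a had a mean of 52.6 normalized reads at 4-weeks and 81.5 at 12-weeks, and Mcpt1l1 had 890.1 and 1693. AC126641.1 is an unnamed gene model whose mean was 55.1 normalized reads at 4-weeks and 95.0 at 12-weeks.

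**Figure D3:**
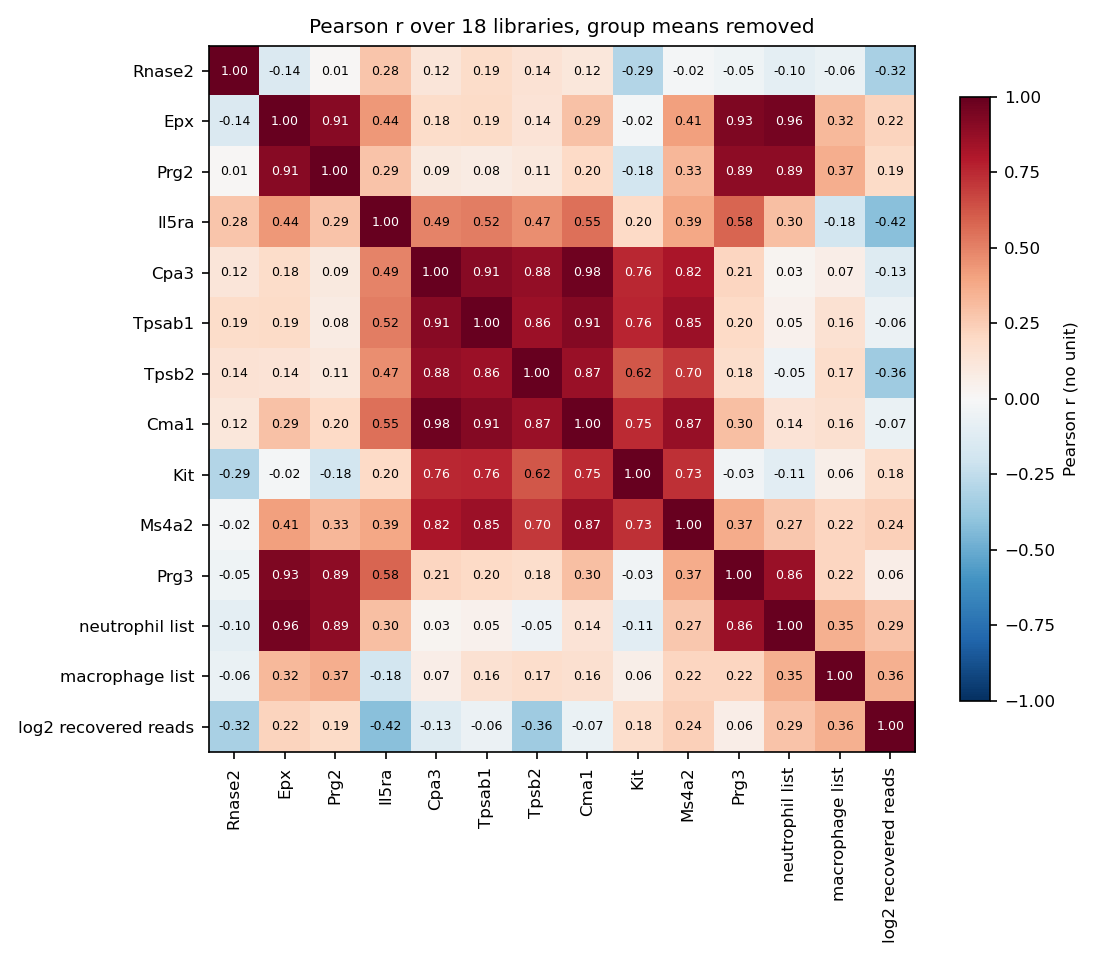
Pearson r (colour and printed value) between the 10 genes, Prg3, the mean log2 level of the neutrophil and of the macrophage marker list, and log2 reads per library, over 18 libraries after the mean of each group was subtracted. The 6 mast cell genes form a block with r from 0.62 to 0.98, Epx and Prg2 form a block with Prg3 and the neutrophil list with r from 0.86 to 0.96, and Rnase2 lies outside both, with r from -0.29 to 0.28 with the other 9 genes.

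The eosinophil genes did not form a single block. Epx and Prg2 varied together (r = 0.91, Spearman's rho 0.93), as did Epx with Prg3 (r = 0.93), which encodes a second major basic protein. Rnase2 had an r of -0.14 with Epx and 0.01 with Prg2, although its correlation with Epx was 0.31 within the 4-week libraries and -0.67 within the 12-week libraries. With Prg2 the values were 0.56 within the 4-week libraries and -0.50 within the 12-week libraries. With the mast cell genes the r of Rnase2 ran from -0.29 to 0.19 over all libraries, from -0.76 (Kit) to 0.25 at 4-weeks and from -0.02 to 0.17 at 12-weeks. The values over all libraries therefore averaged over unlike values, and whether the time points differ was not tested. At 12-weeks, sham replicate 1 lay at -3.02 from its group mean in Rnase2 on the log2 scale. The same library lay at 1.62 in Epx and 2.33 in Prg2, and r without it was not computed. Il5ra had an r of 0.28 with Rnase2, 0.44 with Epx, 0.29 with Prg2 and 0.50 with the mean of the mast cell genes. With that mean its r was 0.35 within the 4-week libraries and 0.83 within the 12-week libraries. Its r was 0.68 with the mean of a muscle marker list (0.95 at 4-weeks and -0.67 at 12-weeks). With a lymphoid marker list it was also 0.68 (0.74 at 4-weeks and 0.43 at 12-weeks).

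Epx and Prg2 moved with neutrophil markers. With the mean log2 level of 10 neutrophil genes (S100a8, S100a9, Mpo, Elane, Cxcr2, Csf3r, Camp, Ltf, Ngp and Mmp8), r was 0.96 for Epx and 0.89 for Prg2 over the 18 libraries. Within the 4-week libraries the values were 0.97 and 0.89, and within the 12-week libraries 0.93 and 0.94. Without the 2 libraries whose Epx or Prg2 lay farthest from its median, they were 0.93 and 0.91. Rnase2 (r = -0.10) and the mean of the mast cell genes (r = 0.07) showed no such relation over the 18 libraries, and Il5ra had an r of 0.30. For Rnase2 the value was 0.22 within the 4-week libraries and -0.52 within the 12-week libraries. Means of other marker lists were also compared over the 18 libraries. For Epx, r was 0.54 with lymphoid, 0.34 with muscle, 0.32 with macrophage and -0.10 with fibroblast markers. For Prg2 these were 0.46, 0.20, 0.37 and 0.01.

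**Figure D4:**
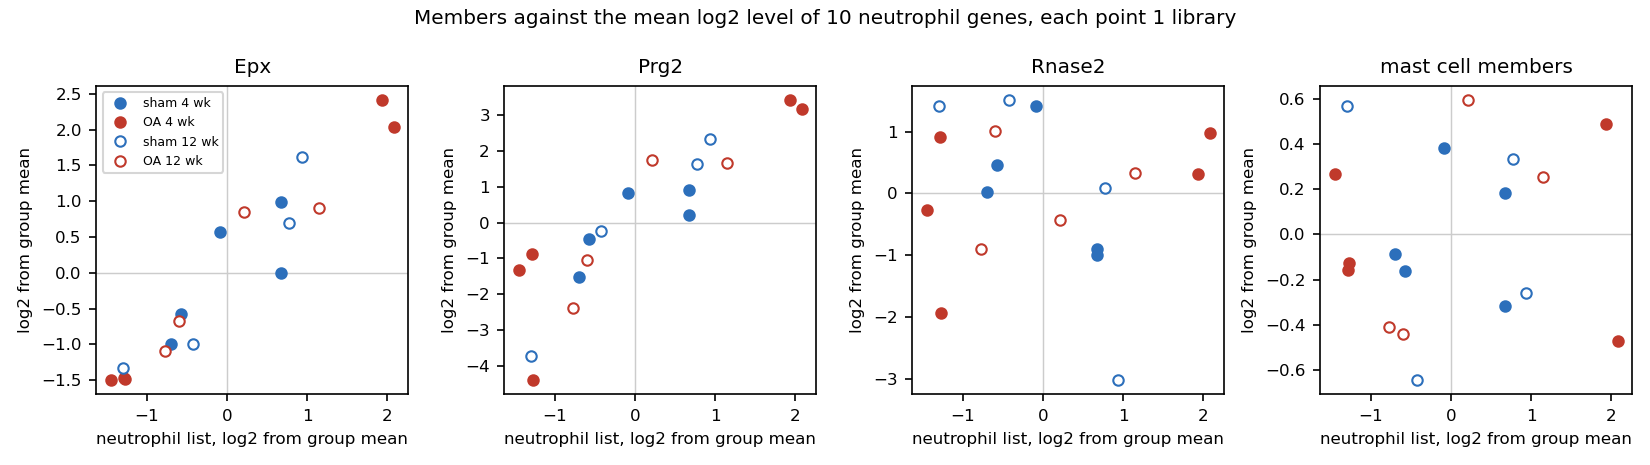
Log2 level of Epx, Prg2, Rnase2 and the mean of the 6 mast cell genes (vertical axes, each panel with its own range) against the mean log2 level of 10 neutrophil genes (horizontal axes), all as the distance from the mean of the library's group, each point 1 library, sham blue, OA red, 4 weeks filled, 12 weeks open. Epx and Prg2 rise along a line (r = 0.96 and 0.89), and Rnase2 and the mast cell genes do not (r = -0.10 and 0.07).

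In OA at 4-weeks and in both 12-week groups, the 2 libraries highest in Epx and Prg2 were also the 2 highest in neutrophil marker sums. Sham at 4-weeks was the exception, with Epx and Prg2 highest in replicates 4 and 3 and the neutrophil sum highest in replicates 1 (4701) and 4 (4299), and 1896 in replicate 3. At 4-weeks the sum of the neutrophil list was 12285 and 14154 normalized reads in OA replicates 1 and 3, against 1075 to 1239 in the other OA libraries and 1473 to 4701 in sham. At 12-weeks sham replicates 1 and 4 had 5148 and 4103, against 1337 to 1424 in the other sham libraries and 1127 to 3805 in OA. All 10 neutrophil genes were detected. None of the list was called at either time point, with 8 of the 10 genes tested. The 5 genes most like Epx were Pglyrp1, S100a8, S100a9, Mmp8 and Camp, with r from 0.94 to 0.96. They are neutrophil granule or cytosol genes, and this likeness was looked up after the values of Epx were seen. The part of neutrophils in the Epx and Prg2 values was not tested.

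Out of 14311 candidates, the 5 genes most like Rnase2 were Cplane2 (r = 0.80), Kif27 (0.79), Cox7c (0.79), LOC103693430 (0.79) and AC099453.1 (0.77). The highest r of so many candidates over 18 libraries can be large for unrelated genes, and no test was made. Neither the eosinophil nor the mast cell lists contain any of them. Cplane2 encodes a protein of cilium assembly, Kif27 a kinesin and Cox7c a subunit of the respiratory chain. Spearman's rho for the 5 genes ran from 0.66 to 0.80.

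Further genes of the eosinophil were described from a list of 12, of which 10 were measured and 9 tested. None was called at either time point. Fold changes were above 0 for 4 and below 0 for 5 genes at 4-weeks (median -0.02), and above 0 for 1 and below 0 for 8 at 12-weeks (median -0.17). Ccr3, the eotaxin receptor, had 11.8 ± 3.11 normalized reads in OA and 21.4 ± 8.94 in sham at 4-weeks (SD, n = 5 each), and 23.1 ± 6.52 and 23.3 ± 5.70 at 12-weeks (SD, n = 4 each). Prg3 ranged from 1.91 to 69.4 at 4-weeks and from 1.07 to 42.3 at 12-weeks. Cebpe, a factor of late granulocyte maturation in both neutrophils and eosinophils, was 30.4 to 105 at 4-weeks and 39.4 to 68.6 at 12-weeks. Alox15, a lipoxygenase, ranged from 13.3 to 89.96 and from 32.7 to 58.2. Il1rl1, the interleukin 33 receptor, was the 1 gene above 0 at 12-weeks, with a log2 fold change of 0.17 (SE 0.12). The 12-week values were -0.47 (SE 0.28) for Siglec5, -0.34 (SE 0.13) for Adgre4 and -0.11 (SE 0.12) for S1pr4, with adjusted p values by limma of 0.368 to 0.699 over these 4 genes. Gata1 was listed at 0 in every library. Csf2rb, the signalling chain shared by the receptors for interleukin 5, interleukin 3 and GM-CSF, is used by many myeloid cells and reached 2864 to 4557 normalized reads at 4-weeks and 3075 to 6034 at 12-weeks. The 12-week difference on the log2 scale was -0.43 (SE 0.12), and limma gave an adjusted p of 0.278.

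Of a list of 15 symbols, made of ribonucleases of the pancreatic family to which Rnase2 belongs and their inhibitor Rnh1, 12 were measured and none was called. The rows tested were Rnh1 and both rows of Rnase4, with Rnase10 added at 12-weeks, where its log2 fold change was 0.29 (SE 0.34). Rnase4 had a mean of 46.0 normalized reads at 4-weeks in its higher row. At 12-weeks that row was 66.5 ± 10.3 in OA and 41.0 ± 5.68 in sham (SD, n = 4 each), with a log2 fold change of 0.68 (SE 0.16), and limma gave an adjusted p of 0.265. Rnh1, the ribonuclease inhibitor that binds these enzymes, was 2008 to 2272 at 4-weeks and 2218 to 2874 at 12-weeks. Ear1 had at most 5.49 normalized reads in any library. Rnase3, looked up after the values of Rnase2 were seen, was listed at 0 in all 18 libraries. How reads from closely related ribonuclease genes were assigned is not given in the sources used here.

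A wider list of 20 mast cell genes had 16 measured, 13 tested at 4-weeks and 11 at 12-weeks, with none called. Fold changes were above 0 for 6 and below 0 for 7 genes at 4-weeks (median -0.07), and above 0 for 3 and below 0 for 8 at 12-weeks (median -0.27). The 3 genes above 0 at 12-weeks were Mitf, a transcription factor of mast cells and macrophages, at 0.30 (SE 0.08), Cd63, a granule membrane protein of many cells, at 0.14 (SE 0.06), and Fcer1g, an Fc receptor chain that macrophages also use, at 0.06 (SE 0.12). Their adjusted p values by limma were 0.278, 0.400 and 0.849. Hpgds, Slc18a2 and Tph1, which serve prostaglandin, monoamine transport and serotonin synthesis, were at -0.27 (SE 0.25), -0.20 (SE 0.11) and -0.30 (SE 0.25). Hdc, which makes histamine, was 92.5 ± 25.4 normalized reads in OA and 96.9 ± 23.7 in sham at 4-weeks (SD, n = 5 each). At 12-weeks it was 202 ± 83.3 in OA and 279.5 ± 70.6 in sham (SD, n = 4 each), with a log2 fold change of -0.53 (SE 0.28), and limma gave an adjusted p of 0.457. Mrgprx2 was 32.9 ± 9.19 in OA and 56.7 ± 10.7 in sham at 4-weeks, and 60.5 ± 20.2 and 76.9 ± 38.8 at 12-weeks. Gata2, the GATA factor of mast cells, ranged from 399 to 596 at 4-weeks and from 395 to 779.7 at 12-weeks. The 12-week difference on the log2 scale was -0.38 (SE 0.13), and limma gave an adjusted p of 0.325. Mcpt1 and Mcpt4 were near the detection limit in most libraries but reached 53.4 and 48.7 in the shallow sham replicate 3 at 4-weeks.

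Basophils share several of these genes. Of 6 basophil symbols 4 were measured and 2 tested, with none called. Mcpt8l2, a protease of the basophil family, was 27.4 ± 12.9 normalized reads in OA and 14.7 ± 6.94 in sham at 4-weeks (SD, n = 5 each), and 18.4 ± 5.21 and 12.9 ± 3.59 at 12-weeks (SD, n = 4 each). The 12-week difference on the log2 scale was 0.49 (SE 0.27), and limma gave an adjusted p of 0.478. Il3ra, the interleukin 3 receptor chain, which other myeloid cells also carry, differed by -0.18 (SE 0.10) at 12-weeks. Prss34 was at most 11.6 at 4-weeks and 1.07 at 12-weeks.

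Finally, 20 ligands, receptors and lipid mediator genes that act on or in these cells were measured, and 14 were tested at each time point with none called. Of these 14, 9 were above 0 and 5 below at 4-weeks, and 5 above and 9 below at 12-weeks. The cytokines Il5, Il4, Il13 and Il3 were at or near 0, with at most 6.96 normalized reads in any library. Kitlg, which encodes stem cell factor, was 1956 ± 215 in OA and 1922 ± 243 in sham at 4-weeks (SD, n = 5 each). At 12-weeks it was 2060.1 ± 347 in OA and 2709.6 ± 399 in sham (SD, n = 4 each), with a log2 fold change of -0.40 (SE 0.14), and limma gave an adjusted p of 0.331. Il33, an alarmin that acts on mast cells and eosinophils, was 2614 ± 455 in OA and 3706 ± 923 in sham at 12-weeks, with a log2 fold change of -0.49 (SE 0.18), and limma gave an adjusted p of 0.348. Ccl24, an eotaxin, was 1080 to 2325 normalized reads at 4-weeks and 2349 to 4799 at 12-weeks. Ccl11 was 72.3 ± 12.5 in OA and 142 ± 92.4 in sham at 4-weeks, with a log2 fold change of -0.74 (SE 0.36). At 12-weeks the log2 fold change of Ccl11 was -0.15 (SE 0.15), with an adjusted p of 0.675 by limma. Ltc4s, which makes leukotriene C4, was 1204 ± 136 in OA and 889 ± 189 in sham at 4-weeks, and 1711 ± 237 in OA and 1359 ± 331 in sham at 12-weeks. At 12-weeks its log2 difference was 0.36 (SE 0.17, adjusted p 0.427 by limma), and that of Alox5ap, which presents substrate for leukotriene synthesis, was 0.23 (SE 0.15, adjusted p 0.539 by limma).

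Markers of other cells that the sort could hold are set beside these genes. At 12-weeks, when the median log2 fold change of the 6 mast cell genes was -0.40, it was 0.18 for the 12 macrophage markers (11 above 0), 0.57 for 7 fibroblast markers (6 above 0) and 0.72 for 6 muscle markers (6 above 0). At 4-weeks the median of the 6 mast cell genes was -0.37. It was 0.12 for the macrophage markers (10 above 0), 0.42 for the fibroblast markers (6 above 0) and -0.12 for the 5 muscle markers tested (2 above 0). Over the wider mast cell list the medians were -0.07 at 4-weeks (6 of 13 above 0) and -0.27 at 12-weeks (3 of 11 above 0). The neutrophil medians were 0.07 at 4-weeks and -0.20 at 12-weeks, and those of 8 monocyte and dendritic markers were -0.04 and 0.02. Lymphoid markers had medians of -0.06 over 2 genes and -0.30 over 3 genes. No gene of these lists was called at either time point. Summed fibroblast markers ran from 69629 to 109652 normalized reads in OA and 46196 to 110066 in sham at 4-weeks, and from 81834 to 107313 in OA and 54987 to 86349 in sham at 12-weeks. The part of these cells in the values of the mast cell and eosinophil genes was not tested.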

How the data were processed

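The authors checked reads with fastp 0.20.0, aligned them to Rnor_6.0 (Ensembl release 102) with STAR 2.7.6a, removed duplicates, counted genes with featureCounts 2.0.0 and normalized with DESeq2 1.24.0. Whether the counting used strand is not given in the sources used here. The deposited signal, reads divided by a size factor per library, came as 1 table per time point. Every value was a whole multiple of 1 read within 0.01, so reads were recovered. Columns of the authors' own comparison (mean, log2 fold change, standard error, statistic and p-values) were not used.

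Groups came from the labels. For each time point OA and sham libraries were fitted in limma 3.58.1 (R 4.3.3) with a mean-variance trend on log2(normalized reads + 1), over genes with a mean of at least 10, with Benjamini-Hochberg adjustment over all genes. A gene was called at an adjusted p under 0.05 and a log2 fold change of at least 0.5. The fit was tested on simulated data. edgeR 4.0.16 and DESeq2 1.42.0 on recovered reads, other pseudocounts, filters and scaling, a replicate block and leaving out each library were alternatives. Libraries of a group are pools of different rats and no 2 agreed within sampling noise. Counting floors cover counting error only.

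The genes and lists were chosen with earlier results of these data known. Named besides the 10 genes were list genes that were called or, for the eosinophil, mast cell, basophil and ribonuclease lists, had a mean of at least 10 in either table, and the 5 genes most like Rnase2 and most like the mast cell genes. Genes that fall outside this rule (Il5, Il4, Il13, Il3, Kitlg, Il33, Ccl24, Ccl11, Ltc4s, Alox5ap, Ear1, Prss34, Rnase3, Gata1, Cd68, Csf1r, C1qa and those most like Epx) were named after their values were seen. Promoter windows came from RefSeq (GRCr8), a later build than that of the reads.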

Additional observations from a re-analysis of the deposited data

How the results depend on the processing

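None of the 10 genes was called at 12-weeks under any of the 17 alternatives in which it was tested. Over all genes, limma as reported called 0 at each time point, DESeq2 called 99 at 12-weeks and 29 at 4-weeks, edgeR with the replicate block (added after seeing the data) called 3 at 12-weeks, and limma with the block called 1 at 4-weeks. Leaving out 1 library gave 0 to 81 calls at 12-weeks, with 81 without sham replicate 3 and 1 without sham replicate 4, and 0 to 1 at 4-weeks, with 1 without sham replicate 3. The cause was not tested. With 1 library left out, the 12-week log2 fold change of Tpsb2 ran from -0.34 to 0.10 and that of Rnase2 from -0.20 to 1.31, and no other gene changed sign at 12-weeks. Other 12-week values moved by over 1.5 times: Prg2 ran from -2.96 (without sham replicate 2) to -0.92 (without OA replicate 3), Epx from -1.80 (without sham replicate 2) to -0.82 (without sham replicate 1), Cpa3 from -0.57 to -0.18, Cma1 from -0.73 to -0.22, Ms4a2 from -0.74 to -0.25 and Tpsab1 from -1.04 to -0.45. For Cpa3, Cma1 and Tpsab1 the value nearest 0 came without sham replicate 2, and for Ms4a2 without OA replicate 3. None of these was past the threshold. Of 154 alternative values of the 10 genes at 12-weeks, 150 kept their direction and stayed under the threshold. At 4-weeks all 187 values moved by less than the spread between libraries, although Prg2 ran from -1.12 to 1.68, Epx from -0.30 to 1.32 and Kit from -0.13 to 0.01. The 4-week value of Rnase2 ran from -2.41 to -1.67. Same-numbered libraries were pools of different rats, and their deviations correlated between -0.13 and 0.08 at 4-weeks and between -0.03 and 0.30 at 12-weeks, where only number 3 was its own best partner. With the replicate block, limma called 0 genes at 12-weeks. The likeness of the 5 genes nearest to Rnase2 ran from 0.66 to 0.81 over its alternatives. These genes were picked as the highest of 14311 candidates, and the alternatives did not repeat that choice. Few reads limit Il5ra and the low libraries of Prg2 and Rnase2.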
